A study of Mus musculus with 112 samples.

Results

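The genes described here lie beside Hras on mouse chromosome 7 and were followed in skin and skin tumours of HrasKO and wild-type (WT) mice. They were named by symbol: Lrrc56, Rassf7, Phrf1, Deaf1, Eps8l2, Tmem80, Cd151, Rnh1 and Ptdss2, 9 of the genes around the locus. Of these, 8 were measured by a probe set that named no other gene, out of 18772 genes measured in this way. Eps8l2 had 2 probe sets, and both named several genes, so Eps8l2 is not reported. The choice of the genes did not use their values, but it was made with earlier results of these data known. Lrrc56 was higher in HrasKO than in WT mice in all 4 tissues, with no overlap between the mice of the 2 genotypes, and it passed the test across all genes in skin and carcinoma. The other 7 genes did not pass that test in any tissue. Over all genes, 0.00533% passed in skin, 0.00533% in papilloma, 4.43% in carcinoma and 0% in metastasis. Groups that did not overlap were held by 0.256%, 0.368%, 0.74% and 0.0799% of genes in that order.

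All 15 mice were male FVBBX mice, which came from F1 hybrids of Spretus and FVB crossed back to FVB. Each received the mutagen DMBA once at 8 weeks of age and the tumour promoter TPA 2 times per week, primary tumours were resected beyond 1 cm, and metastases were taken at sacrifice. The HrasKO group held 6 mice with 6 dorsal skins, 8 papillomas of 4 mice, 7 carcinomas of 6 mice and 16 metastases of 6 mice. The WT group held 9 mice with 9 dorsal skins, 19 papillomas, 18 carcinomas and 29 metastases, each kind from all 9 mice. By label, HrasKO carcinomas were 5 spindle, 2 mixed and 0 squamous (SCC), and WT carcinomas were 7 spindle, 1 mixed and 10 SCC. HrasKO metastases were 10 spindle and 6 SCC, and WT metastases were 10 spindle, 1 mixed and 18 SCC. Neither the construction of the HrasKO allele nor its strain of origin is given in the sources used here, so the loss of Hras and other differences of DNA linked to that allele cannot be told apart in this design.

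Hras encodes a small GTPase that passes growth signals from receptors to the MAP kinase cascade, and it is the oncogene typically mutated in skin tumours induced by DMBA and TPA. Its neighbours encode proteins of varied function, and several start close to a neighbour that is read from the opposite strand. In the gene order of the mouse reference, Ptdss2 and Rnh1 lie on one side of Hras, and Lrrc56, Rassf7, Phrf1, Deaf1, Tmem80 and Cd151 follow on the other side in that order. Lrrc56 is the gene next to Hras. It encodes a leucine-rich repeat protein that is needed for the beating of motile cilia in humans. Hras itself was not analysed here, so the knocked-out gene could not be checked against the genotype labels.

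RefSeq held promoter windows (250 bases before to 50 bases after a transcript start, build GRCm38.p6) for 9 of the 9 genes, 14 windows in all. The first Lrrc56 window overlapped that of Hras on the other strand, with 125 bases between the starts of the 2 genes, which run away from each other. Deaf1 overlapped in the same manner with Tmem80 (404 bases between the starts) and, from another start, with Eps8l2 (218 bases). Such an overlap with a gene on the other strand was held by 11.9% of the 27025 genes in the table. Printed first is the stretch shared by Hras and Lrrc56, since Lrrc56 carried the difference between genotypes. The stretch before the other Lrrc56 start follows, and then that before Phrf1, whose HrasKO mice all lay below the WT median in every tissue. Capitals mark GC boxes (GGGCGG) and CCAAT boxes (CCAAT) on either strand, and no 2 marked motifs overlapped.
Hras to Lrrc56, chr7:141194005-141194129, plus strand: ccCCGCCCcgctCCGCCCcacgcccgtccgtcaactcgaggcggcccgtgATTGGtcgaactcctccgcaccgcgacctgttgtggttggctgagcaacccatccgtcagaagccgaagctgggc
Lrrc56, other start, chr7:141194893-141195142, plus strand: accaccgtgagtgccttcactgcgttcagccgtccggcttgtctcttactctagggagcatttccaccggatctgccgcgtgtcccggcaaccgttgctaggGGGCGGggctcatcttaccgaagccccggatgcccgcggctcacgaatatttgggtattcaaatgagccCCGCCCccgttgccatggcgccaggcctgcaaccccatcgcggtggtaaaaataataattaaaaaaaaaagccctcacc
Phrf1, chr7:141228538-141228787, plus strand: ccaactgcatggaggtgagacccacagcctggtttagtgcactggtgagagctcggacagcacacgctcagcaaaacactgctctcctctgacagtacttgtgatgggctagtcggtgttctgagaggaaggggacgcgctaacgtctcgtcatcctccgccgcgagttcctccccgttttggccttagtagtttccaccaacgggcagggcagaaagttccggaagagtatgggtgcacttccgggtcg

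The stretch between Hras and Lrrc56 held 2 GC boxes and 1 CCAAT box, and the other Lrrc56 stretch held 2 GC boxes. The Phrf1 stretch held neither motif. Over whole windows, 11 of the 14 held a GC box, against 35.7% of all 32851 windows, and 2 of the 14 held a CCAAT box, against 37.4% of all. A further motif, the AP-1 site TGACTCA, to which the factor induced by TPA binds, was found in 1 of the 14 windows (Rnh1), against 5.2% of all windows. These letters describe the windows only.

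Levels are log2 intensities that the submitters obtained by RMA (robust multi-array averaging), and an increase of 1 is a doubling on the linear scale. Values of several tumours of a mouse were averaged, so that the mouse was the unit compared. The array medians lay between 5.89 and 6.36. By the centroid of the kind it was labelled as, 23 of the 112 arrays lay closer to another kind of tissue or histology. Of these, 7 were HrasKO arrays (2 papillomas, 5 metastases) and 16 were WT arrays (5 papillomas, 9 carcinomas, 2 metastases), so the differences in tumours are also given without them for Lrrc56, and for the other genes where their direction turned. The WT carcinomas among the 23 were labelled SCC, apart from a spindle carcinoma of mouse 1949, and all lay closest to papilloma. In carcinomas, leaving these arrays out removes most WT SCC tumours. It therefore shares many arrays with the fit of spindle tumours alone, and the fits are not separate checks. The labelled tissues showed their markers unevenly. The mean level of 6 keratinocyte markers (Krt5, Krt14, Trp63, Dsg3, Epcam, Esrp1) lay between 4.70 and 11.1 in carcinomas of HrasKO mice and between 6.14 and 11.5 in those of WT mice. In bulk tissue, fewer cells of a type and less RNA per cell cannot be told apart.

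In dorsal skin, Lrrc56 was the gene with the smallest p of all genes and the only gene past the threshold. Its lowest, median and highest levels were 6.42, 6.72 and 6.78 in the 6 HrasKO mice, against 5.51, 5.96 and 6.14 in the 9 WT mice. Every HrasKO skin was above every WT skin. The difference was log2 0.80 (SE 0.0921, limma adjusted p = 0.00896), which is 1.74-fold with a 95% confidence interval of 1.52 to 1.99. Only 0.00533% of all genes passed this test in skin, and 0.256% had groups that did not overlap. An exact permutation test over mice gave the smallest p the design allows (p = 0.0002, two-sided). Within the 13 mice of batch 1 the difference was 0.79 (limma adjusted p = 0.0606), and the single HrasKO mouse of batch 2 was 0.85 above the single WT mouse. The same adjusted p was reached without mouse 1456 or mouse 1664, the 2 mice of batch 2. Without mouse 1509 it was 0.054 and without mouse 1616 it was 0.0507, at differences of 0.79 and 0.80. The skeletal muscle markers Acta1, Myh4 and Ckm had a mean level of 10.4 to 12.3 in skin of HrasKO mice and of 5.75 to 12.1 in that of WT mice. None of the 3 passed the test (limma adjusted p of 0.359 or more), and their part in the result was not tested.

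**Figure D1:**
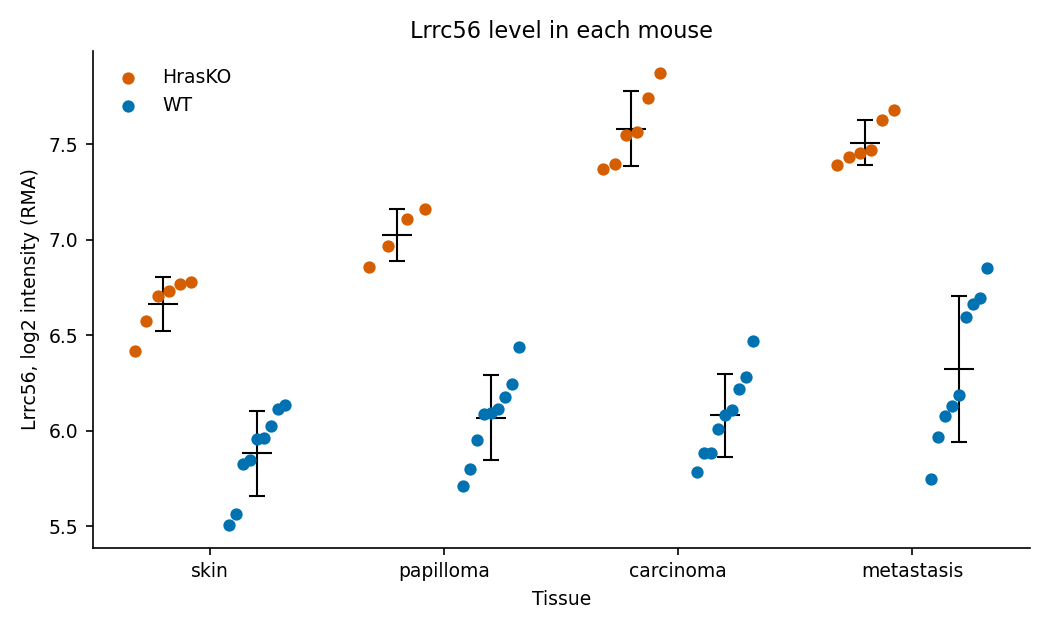
Lrrc56 level (log2 intensity, vertical axis) of each mouse in the 4 tissues, with HrasKO mice (6, 4 in papilloma) left of WT mice (9). Points are means per mouse, and bars give the mean and SD of the mice. In skin the lowest HrasKO mouse lies at 6.42 and the highest WT mouse at 6.14, and in carcinoma at 7.37 and 6.47.

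In papillomas, the benign tumours, Lrrc56 was again higher in HrasKO mice. The 4 HrasKO mice had levels of 6.86, 6.97, 7.11 and 7.16, and the 9 WT mice ran from 5.71 to 6.44 (median 6.09). No WT mouse reached the lowest HrasKO mouse, and at the level of single arrays all 8 HrasKO papillomas were above all 19 WT papillomas. The difference was log2 0.95 (SE 0.128, 1.93-fold, 95% confidence interval 1.59 to 2.34). It had the second smallest p of all genes but missed the threshold (limma adjusted p = 0.0825), and 0.00533% of genes passed in this tissue. Groups without overlap were held by 0.368% of genes, and the exact permutation p was the smallest possible (p = 0.0014, two-sided). Without the arrays that lay closer to another kind, the difference was 1.06 (limma adjusted p = 0.00715). It also passed without mouse 1509 (0.96, adjusted p = 0.0397) or mouse 1815 (0.99, adjusted p = 0.0205), and with no batch term (0.95, adjusted p = 0.0267). It missed the threshold further in batch 1 alone (0.93, adjusted p = 0.396). With each of the 13 mice left out in turn it passed in 2 fits, and the highest adjusted p was 0.422.

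In carcinomas the gap was the widest. Lrrc56 ran from 7.37 to 7.87 (median 7.56) in HrasKO mice, and from 5.78 to 6.47 (median 6.08) in WT mice. All 7 HrasKO carcinomas exceeded all 18 WT carcinomas, the highest of which reached 7.22. The difference was log2 1.52 (SE 0.106, limma adjusted p = 1.84e-05), or 2.86-fold with a 95% confidence interval of 2.44 to 3.35, and it had the smallest p of all genes. In this tissue 4.43% of genes passed the test and 0.74% had groups that did not overlap (exact permutation p = 0.0002 for Lrrc56, two-sided). The genotypes differed in histology as well. Of 6 keratinocyte markers, 0 were called and the median difference was -2.56, and of 6 mesenchymal markers (Vim, Col1a1, Col3a1, Pdgfra, Zeb1, Fn1) 5 were called higher in HrasKO mice (median difference 0.56). Between spindle carcinomas alone, Lrrc56 averaged 7.55 ± 0.231 in HrasKO mice (SD, n = 4) and 6.39 ± 0.430 in WT mice (SD, n = 6). In the fit with batch as a covariate, the HrasKO mouse of batch 2 had no WT mouse beside it, so the estimate rested on 3 HrasKO mice. It was 1.23 and missed the threshold (limma adjusted p = 0.991). With the share of spindle arrays as a covariate it was 1.52 (adjusted p = 0.000133). Without the arrays that lay closer to another kind it was 1.40 (adjusted p = 0.105). That fit held 6 WT mice, since the other WT mice had no carcinoma array left. Most WT SCC carcinomas were left out of it. The HrasKO mouse of batch 2 again had no WT mouse beside it, so the estimate rested on 5 HrasKO mice.

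In metastases, Lrrc56 ran from 7.39 to 7.68 (median 7.46) in HrasKO mice, and from 5.75 to 6.85 (median 6.19) in WT mice. The mice did not overlap, whereas 4 of the 29 WT arrays lay above the lowest of the 16 HrasKO arrays (6.96). The difference was log2 1.20 (SE 0.161, 2.29-fold, 95% confidence interval 1.80 to 2.91). It had the smallest p of all genes but missed the threshold (limma adjusted p = 0.0663), as did every other gene (0% passed, while 0.0799% had groups that did not overlap). The exact permutation p was again 0.0002, two-sided. It passed without mouse 1949 (1.26, adjusted p = 0.0282) and with no batch term (1.19, adjusted p = 0.0387). It missed the threshold further in batch 1 alone (1.19, adjusted p = 0.360), without the arrays that lay closer to another kind (1.24, adjusted p = 0.251) and with the share of spindle arrays as a covariate (1.16, adjusted p = 0.468). Among SCC metastases alone the difference was 1.05, among spindle metastases alone 1.28 (from 3 HrasKO and 3 WT mice) and among lymph node metastases alone 1.15, none of which passed. In lymph nodes the mean was 7.44 ± 0.262 in HrasKO mice (SD, n = 5) and 6.31 ± 0.427 in WT mice (SD, n = 9). In lungs it was 7.55 ± 0.313 in HrasKO mice (SD, n = 4) and 6.52 ± 0.482 in WT mice (SD, n = 6). The B cell markers Cd79a and Ms4a1 had a mean level of 5.99 to 11.3 in metastases of HrasKO mice and of 6.33 to 9.17 in those of WT mice, and their part in the result was not tested.

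Over the 4 tissues together, Lrrc56 was the only 1 of 18772 genes whose HrasKO mice lay above all WT mice in each, and 0 genes lay below in each. The 4 comparisons share mice, so they do not count as independent tests. Tissue accounted for 10.98% of the variance of Lrrc56 over the 112 arrays, and tissue with genotype for 76.0%. For the other 7 genes tissue with genotype accounted for 10.8% (Ptdss2) to 42.8% (Rnh1). Tissue with histology accounted for 27.1% in Lrrc56.

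The difference in Lrrc56 was larger in carcinomas than in skin. From skin to carcinoma the change per mouse was 0.92 on average in HrasKO mice, with a range of 0.78 to 1.17, and 0.20 in WT mice, with a range of -0.07 to 0.62. All 6 HrasKO mice and 7 of the 9 WT mice moved up, and no WT mouse reached the lowest HrasKO mouse. The changes differed by 0.72 (SE 0.115, limma adjusted p = 0.0202), a test passed by 2.33% of genes. For the change from skin to papilloma the genotypes differed by 0.11 (adjusted p = 0.907, 0% of genes passed). For that from skin to metastasis they differed by 0.40 (adjusted p = 0.429, 0% of genes passed). HrasKO carcinomas held no SCC tumours, so this difference and that of histology cannot be fully told apart. Among WT carcinomas the mean level was 6.39 ± 0.430 in spindle tumours (SD, n = 6) and 5.94 ± 0.141 in SCC tumours (SD, n = 8), a difference of 0.43 (SE 0.174, limma adjusted p = 0.165).

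**Figure D2:**
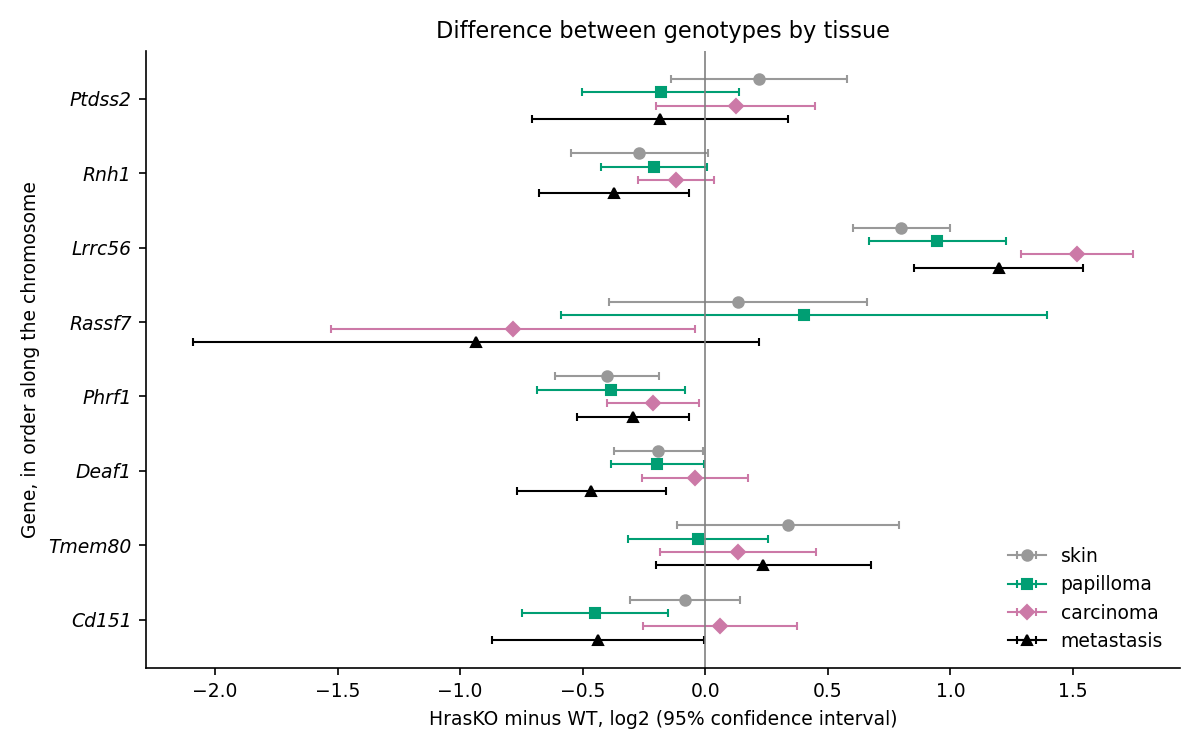
Difference HrasKO minus WT (log2, horizontal axis) for the 8 measured genes in their order along the chromosome, with 95% confidence intervals that are not adjusted for the number of genes. Symbols mark the tissue. Lrrc56 lies between 0.80 and 1.52 in the 4 tissues, and the intervals of Phrf1 lie below 0 in each.

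Phrf1 was lower in HrasKO mice in every tissue without passing the test across all genes. It encodes a protein with PHD and RING fingers, a ubiquitin ligase that in human cells promotes TGF-beta signalling. In skin its level ran from 7.26 to 7.78 (median 7.60) in HrasKO mice, and from 7.59 to 8.25 (median 7.97) in WT mice. In papillomas the 4 HrasKO mice had 7.86, 7.92, 8.03 and 8.07, and the WT mice ran from 8.01 to 8.65 (median 8.36). In both tissues the lowest values belonged to HrasKO mice and the highest to WT mice. In carcinomas HrasKO mice ran from 8.00 to 8.30 (median 8.12), and WT mice from 8.11 to 8.52 (median 8.35). In metastases HrasKO mice ran from 8.01 to 8.24 (median 8.15), and WT mice from 8.16 to 8.82 (median 8.36). In each tissue every HrasKO mouse was below the WT median, and the groups overlapped. The differences in Phrf1 were -0.40 (SE 0.0990) in skin, -0.38 (SE 0.138) in papilloma, -0.21 (SE 0.0877) in carcinoma and -0.29 (SE 0.106) in metastasis. Their limma adjusted p was 0.260, 0.801, 0.142 and 0.459 in that order, with unadjusted p of 0.00118, 0.0172, 0.0282 and 0.0156. Of all 18772 genes, 7 were lower with an unadjusted p under 0.05 in all 4 tissues. These were Mtg1, Odc1, Phrf1, Rnf169, Snord16a, Snrpa1 and Thap12. By the same rule 2 genes were higher, Lrrc56 and Abhd14b. Apart from Phrf1 and Lrrc56, these genes were named after their values were seen, and their places on the chromosomes were not examined.

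An unadjusted p under 0.05 was more frequent in some tissues over all genes, and the counts of the 8 genes are to be read against that. In skin 3 of the 8 genes had one, Lrrc56 higher and Phrf1 and Deaf1 lower, against 11% of all genes. In papillomas 4 had one, Lrrc56 higher and Phrf1, Deaf1 and Cd151 lower, against 5.11% of all genes. In carcinomas 3 had one, Lrrc56 higher and Phrf1 and Rassf7 lower, against 25.6% of all genes. In metastases 5 had one, Lrrc56 higher and Phrf1, Deaf1, Rnh1 and Cd151 lower, against 10.3% of all genes. The median difference of the 8 genes was 0.03 in skin, -0.19 in papilloma, 0.01 in carcinoma and -0.33 in metastasis, beside 0.0017, -0.0013, 0.027 and 0.0069 over all genes.

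Cd151 encodes a tetraspanin that binds laminin-binding integrins at the cell surface. In papillomas the 4 HrasKO mice had 10.24, 10.31, 10.33 and 10.36, and the 9 WT mice ran from 10.52 to 11.33 (median 10.66). The groups did not overlap, as was so for 0.368% of all genes, and the difference was -0.45 (SE 0.137, limma adjusted p = 0.669). In metastases HrasKO mice ran from 9.66 to 11.15 (median 10.54), and WT mice from 10.40 to 11.42 (median 10.88). There the groups overlapped, and the difference was -0.44 (SE 0.201, adjusted p = 0.481). In skin (-0.08) and carcinoma (0.06) the confidence intervals held 0. Of 7 known partners and related tetraspanins (Itga3, Itga6, Itgb1, Itgb4, Cd9, Cd81, Cd82), 0 were called in skin, papilloma and metastasis. In these tissues 0.00533%, 0.00533% and 0% of all genes were called. In carcinoma Cd82 was called higher in HrasKO mice, by 0.81 (SE 0.139, adjusted p = 0.0235), where 4.43% of all genes were called. No gene was called there without the arrays that lay closer to another kind or among spindle tumours alone.

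Deaf1 encodes a transcription factor with a SAND domain. In metastases its level ran from 8.17 to 8.50 (median 8.28) in HrasKO mice, and from 8.43 to 9.30 (median 8.72) in WT mice. Of the 6 HrasKO mice, 4 lay below the lowest WT mouse. The difference was -0.46 (SE 0.142, limma adjusted p = 0.459), and it was smaller in skin (-0.19), papilloma (-0.20) and carcinoma (-0.04). Among HrasKO metastases Deaf1 averaged 8.18 ± 0.0171 in SCC tumours (SD, n = 3) and 8.39 ± 0.155 in spindle tumours (SD, n = 4).

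Rnh1 encodes the cytosolic ribonuclease inhibitor. Its difference was -0.27 (SE 0.130) in skin, -0.21 (SE 0.0986) in papilloma, -0.12 (SE 0.0724) in carcinoma and -0.37 (SE 0.142) in metastasis, all with limma adjusted p of 0.324 or more. In metastases HrasKO mice ran from 10.01 to 10.85 (median 10.57), and WT mice from 10.56 to 11.28 (median 10.81). Ptdss2, which makes phosphatidylserine, had differences of 0.22, -0.18, 0.12 and -0.19 in the order of the tissues, each with a confidence interval that held 0. Tmem80, a transmembrane protein, had differences of 0.34, -0.03, 0.13 and 0.24, again with intervals that held 0. In skin all 6 HrasKO mice had more Tmem80 than the WT median of 6.60, with a range of 6.66 to 7.46 in HrasKO mice and 6.10 to 7.50 in WT mice.

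Rassf7, a protein of the Ras-association domain family, had the widest spread of the 8 genes over arrays, from 5.04 to 10.2. In skin it ran from 6.79 to 8.54 (median 8.22) in HrasKO mice, and from 7.50 to 8.54 (median 7.94) in WT mice. In papillomas the 4 HrasKO mice had 8.56, 8.75, 9.26 and 9.44, and WT mice ran from 6.79 to 9.27 (median 8.98). The differences were 0.13 (SE 0.245) in skin and 0.40 (SE 0.455) in papilloma. In both tissues the groups overlapped, and the lowest skin was that of an HrasKO mouse. In carcinomas HrasKO mice ran from 6.56 to 8.49 (median 7.06), and WT mice from 7.10 to 9.20 (median 7.99). In metastases HrasKO mice ran from 6.35 to 7.82 (median 7.12), and WT mice from 6.26 to 9.93 (median 7.63). The differences were -0.78 (SE 0.345, limma adjusted p = 0.171) in carcinoma and -0.93 (SE 0.538, adjusted p = 0.552) in metastasis. The groups overlapped in both tumour tissues, with the highest mice in WT. The direction in carcinoma depended on the arrays used. Without mouse 1706 the difference was -1.07 and passed (adjusted p = 0.0362), in a fit where 2248 of 18772 genes passed. Without the arrays that lay closer to another kind it was 0.54 (adjusted p = 0.991), and among spindle tumours alone it was 0.0043. Among spindle metastases alone it was 1.17 (adjusted p = 0.999). Without the arrays that lay closer to another kind, Cd151 (-0.14) and Ptdss2 (-0.16) also turned in carcinoma, as did Tmem80 in papilloma (0.0097) and in carcinoma (-0.00062), none of them called in either fit.

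Rassf7 was also compared between histology labels. Among WT carcinomas it averaged 7.11 ± 1.59 in spindle tumours (SD, n = 6) and 8.72 ± 0.633 in SCC tumours (SD, n = 8). The difference was -1.54 (SE 0.607, limma adjusted p = 0.159) in a test passed by 3.5% of genes. Mouse 1949, whose spindle carcinoma lay closer to another kind, had the highest Rassf7 of all carcinomas, at 10.2. Without that mouse the difference was -2.31 (adjusted p = 0.000382), in a fit where 3671 of 18772 genes passed. Among WT metastases the mean was 6.11 ± 0.629 in spindle tumours (SD, n = 3) and 8.59 ± 1.10 in SCC tumours (SD, n = 8). Between spindle carcinomas alone, Rassf7 averaged 7.05 ± 0.329 in HrasKO mice (SD, n = 4) and 7.11 ± 1.59 in WT mice (SD, n = 6). Between spindle metastases it averaged 7.20 ± 0.496 in HrasKO mice (SD, n = 4) and 6.11 ± 0.629 in WT mice (SD, n = 3), the reverse of the order among all metastases. HrasKO metastases labelled SCC had a Rassf7 mean of 6.84 ± 0.586 (SD, n = 3), and 5 of their 6 arrays lay closest to the spindle centroid. The mean level of keratinocyte markers in metastases was 5.04 to 8.47 in HrasKO mice and 4.72 to 11.3 in WT mice. Of the 6 markers 0 were called, as were 0% of all genes. All 6 were lower in HrasKO mice (median difference -2.87), 4 of them with an unadjusted p under 0.05, against 10.3% of all genes. Their part in the result was not tested.

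**Figure D3:**
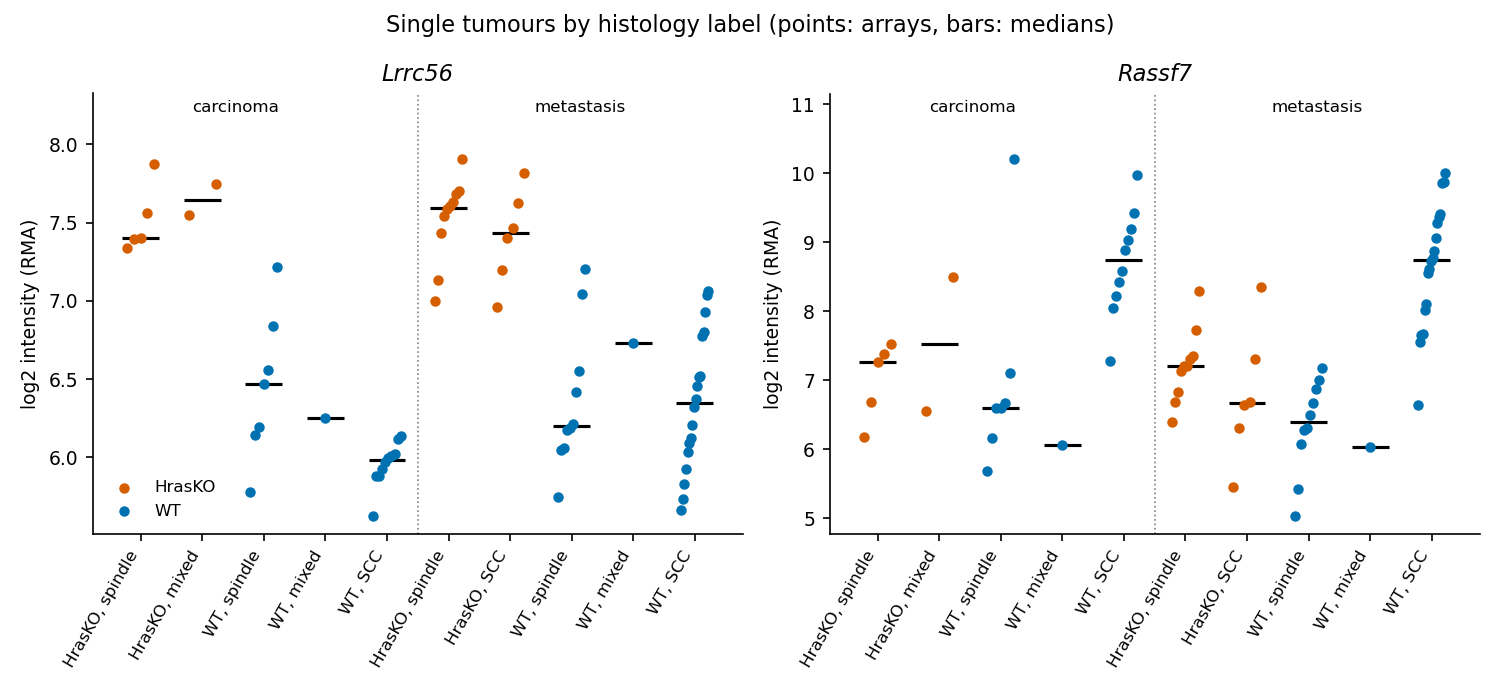
Lrrc56 (left) and Rassf7 (right) in single carcinomas and metastases by genotype and histology label, as log2 intensity on the vertical axis. Points are arrays, bars are medians, and arrays of the same mouse are not independent. HrasKO carcinomas lie at 7.34 or more for Lrrc56 under each label, and the median Rassf7 level of WT SCC tumours lies above that of the other classes in both tissues.

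In WT carcinomas the other genes gave no call between spindle and SCC tumours either. Cd151 averaged 11.1 ± 0.241 in spindle tumours (SD, n = 6) and 10.6 ± 0.229 in SCC tumours (SD, n = 8), a difference of 0.46 (SE 0.144, limma adjusted p = 0.0877). It passed without mouse 1949 (0.51, adjusted p = 0.0400), in a fit where 3671 of 18772 genes passed. The differences were 0.54 for Ptdss2 (adjusted p = 0.140), 0.38 for Deaf1 (adjusted p = 0.153) and 0.17 for Rnh1 (adjusted p = 0.423), and those of Phrf1 and Tmem80 were within 0.01 of 0.

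Along the course of the disease, 5 of the 8 genes rose from skin to papilloma in the 13 mice with both. At this step 4593 of 18772 genes passed the test as higher and 3400 as lower, together 42.6% of all genes. Rnh1 rose by 0.68 (SE 0.0742, limma adjusted p = 9.76e-06) and Phrf1 by 0.40 (SE 0.0750, adjusted p = 0.000725), each in 13 of 13 mice. Cd151 rose by 0.43 in 12 mice, Deaf1 by 0.21 in 12 mice and Rassf7 by 0.77 in 11 mice (adjusted p = 0.000588, 0.0138 and 0.0158 in that order). Lrrc56 had a change of 0.24 (SE 0.0943), with 9 of 13 mice up, and just missed the threshold (adjusted p = 0.0548). It passed without mouse 1717 (0.28, adjusted p = 0.0280) or mouse 1949 (0.27, adjusted p = 0.0358). In WT mice alone the changes of Rassf7 (0.62, adjusted p = 0.127) and Deaf1 (0.20, adjusted p = 0.0831) missed it. The changes from skin to papilloma did not pass a test of difference between genotypes for any of the 8 genes (limma adjusted p of 0.721 or more).

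From papilloma to carcinoma only Rassf7 was called among the 8 genes, against 26.5% of all genes. It fell by 0.85 (SE 0.217, limma adjusted p = 0.0121) and was lower in 11 of 13 mice. In WT mice alone, the change of -0.56 missed the threshold (adjusted p = 0.119). Deaf1 had a change of 0.19 (adjusted p = 0.0595), Cd151 of 0.25 (adjusted p = 0.0634) and Tmem80 of 0.29 (adjusted p = 0.0673), each with 10 of 13 mice up. Deaf1 passed without mouse 1456, 1815 or 2104 (0.22, 0.21 and 0.21), Cd151 without mouse 1456 or 2104 (0.28 and 0.30), Tmem80 without mouse 2104 (0.35) and Ptdss2 without mouse 1815 (0.24). From carcinoma to metastasis 0 of the 8 genes passed, against 16.7% of all genes, and Tmem80 had the smallest p (a change of 0.26, unadjusted p = 0.0278, limma adjusted p = 0.111, 12 of 15 mice up). Tmem80 passed without mouse 1383 (0.33, adjusted p = 0.0306).

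**Figure D4:**
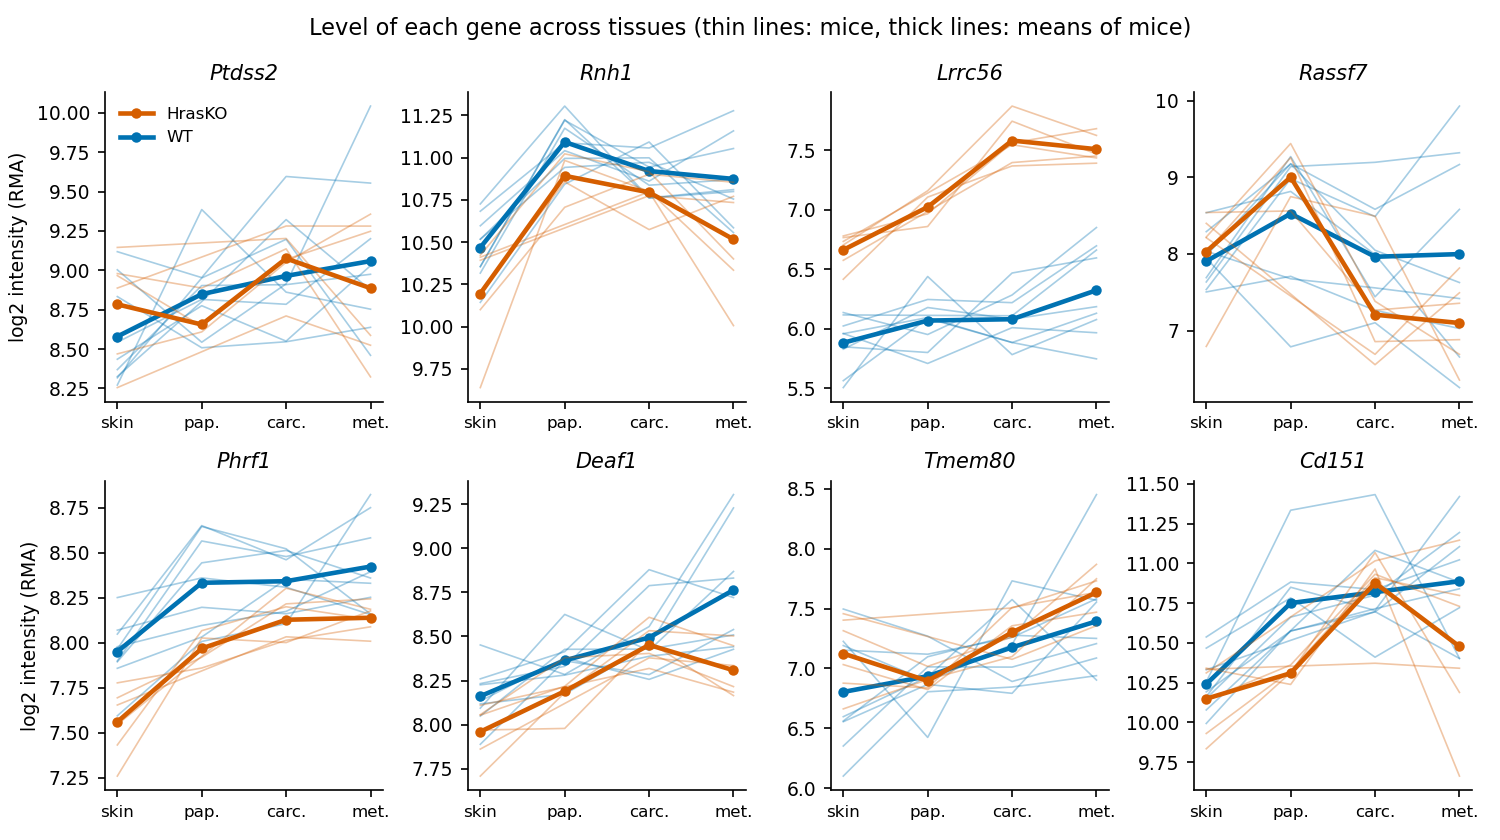
Level of the 8 genes (log2 intensity, vertical axes with different ranges) in skin, papilloma, carcinoma and metastasis. Thin lines are mice, a line that skips papilloma belongs to an HrasKO mouse without papilloma arrays, and thick lines are means of HrasKO and WT mice. The mean lines of Lrrc56 do not cross, and the mean of Rassf7 is highest in papilloma in both genotypes.

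Named genes farther along the chromosome were compared in the same way, 25 on each side of Hras. Of these 50 genes, 1 was called in skin (Lrrc56), 0 in papilloma, 3 in carcinoma and 0 in metastasis. The 3 in carcinoma are 6% of the 50, against 4.43% of all genes. Beside Lrrc56, the calls in carcinoma were Tspan4, a tetraspanin, and Snora52, a small nucleolar RNA. Tspan4 averaged 11.3 in HrasKO mice and 10.6 in WT mice, a difference of 0.77 (SE 0.173, limma adjusted p = 0.0348). Snora52 averaged 11.9 in HrasKO mice and 12.1 in WT mice, a difference of -0.27 (SE 0.0674, adjusted p = 0.0443). Both calls ended without the arrays that lay closer to another kind and among spindle tumours alone, where 0 genes were called, and no more than 3 genes were called in batch 1 alone or without mouse 1456 or 1664. Rnh1, the nearest measured gene on the other side of Hras, had a difference of -0.12 in carcinoma (adjusted p = 0.324). The median difference of the 42 genes that are not among the 8 was 0.05 in skin, -0.05 in papilloma, -0.01 in carcinoma and -0.09 in metastasis.

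**Figure D5:**
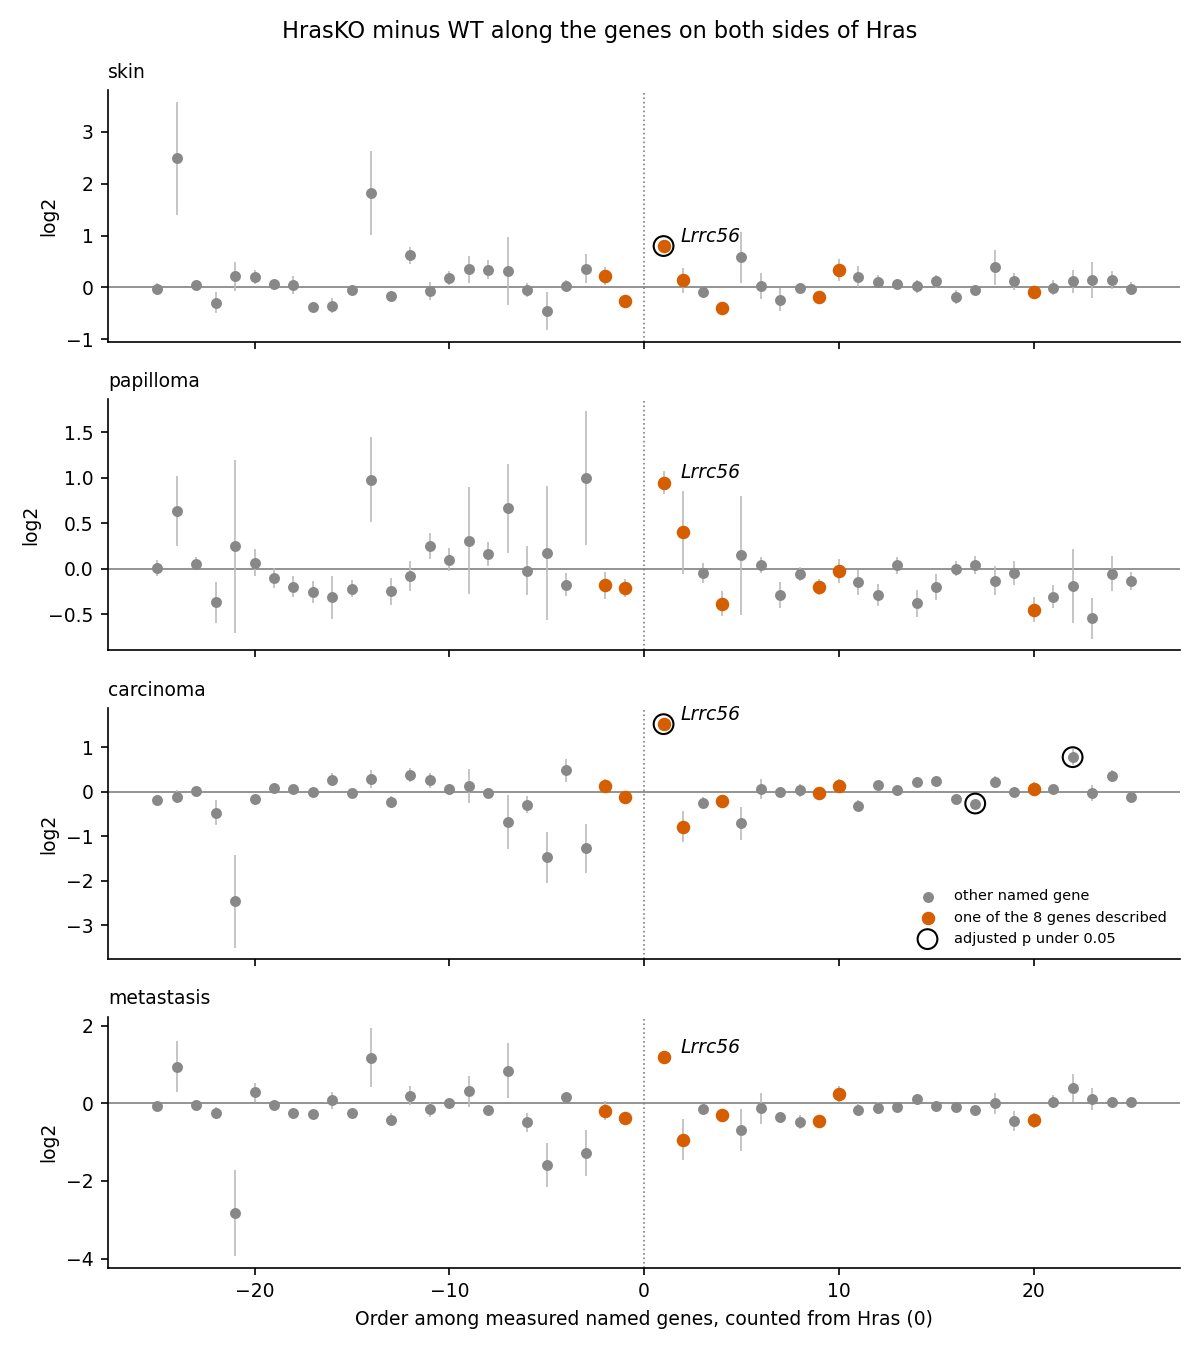
Difference HrasKO minus WT (log2, vertical axes with different ranges) of 50 named genes by their order from Hras, which is at 0, in the 4 tissues. Bars are standard errors from limma, coloured points are the 8 genes described, and circles mark an adjusted p under 0.05. Lrrc56, at position 1, is circled in skin and carcinoma, and only 2 other genes are circled, both in carcinoma.

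Lists of other genes were compared in the same way. Of the Ras genes Nras, Rras, Rras2 and Mras, 0 were called in any tissue. Over all genes, 0.00533% were called in skin and in papilloma, 4.43% in carcinoma and 0% in metastasis. In carcinoma all 4 Ras genes had positive differences, 3 of them with an unadjusted p under 0.05, against 25.6% of all genes. Mras had the largest of these differences, 1.41 in carcinoma (SE 0.389, limma adjusted p = 0.0537), followed by Rras at 0.51 (SE 0.151, adjusted p = 0.0622) and Nras at 0.24 (SE 0.0853, adjusted p = 0.103). Of 10 motile cilium genes, 6 were measured, among them Foxj1, the master regulator of motile cilia, and 0 were called. Their mean level was 4.23 to 4.53 in carcinomas of HrasKO mice and 4.24 to 4.45 in those of WT mice, and their median difference there was 0.02. These levels lay below the lowest array median (5.89), so the lack of calls says little about these genes. In metastases the 6 had positive differences (median 0.22). Lung markers (Sftpc, Sftpb, Sftpa1, Scgb1a1, Slc34a2) were at 4.08 to 8.16 in metastases of HrasKO mice and at 4.26 to 7.52 in those of WT mice, and their part in this was not tested.

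Outside the locus, here meaning beyond the 50 named genes around Hras, the calls give a scale for the values above. Whether the genes named here lie on the same chromosome as Hras was not examined, so they are not known to be unlinked. In papillomas the only gene called was Bub3, a spindle checkpoint protein, which averaged 9.06 ± 0.0272 in HrasKO mice (SD, n = 4) and 9.58 ± 0.0614 in WT mice (SD, n = 9), a difference of -0.52 (limma adjusted p = 0.0188). This call ended in batch 1 alone, with the filter on low values and when any of 9 of the 13 mice was left out, where 0 genes were called. In carcinomas 740 genes were higher and 91 lower in HrasKO mice. The largest rises were those of Glp1r, the receptor of the hormone GLP-1 (3.43), Ibsp, a bone matrix sialoprotein (3.25), and Slc9a2, a sodium-proton exchanger (3.08). The largest falls were those of Tgm3, an epidermal transglutaminase (-3.60), Sprr2j-ps, a pseudogene of the small proline-rich proteins (-3.43) and Il1f6, an interleukin of the IL-1 family (-3.24). The count of 831 moved by over 1.5 times when any of the 15 mice was left out (3 to 2411) and was 0 without the arrays that lay closer to another kind.

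By Pearson correlation over the 58 means per mouse and tissue, the genes most like Lrrc56 were Mrgpre (0.722), Mdm1 (0.703), Ccdc167 (0.696), Zmat5 (0.696) and Alkbh7 (0.689). The points share mice, tissues and genotypes, so the values describe the data only. Whether these genes lie on the same chromosome as Lrrc56 was not examined. With each group of genotype and tissue centred, these correlations were 0.492, 0.383, 0.222, 0.0827 and 0.331 in that order. Among the 8 genes themselves, the closest pair after this centring was Lrrc56 and Deaf1 (0.673), followed by Cd151 and Ptdss2 (0.508) and by Tmem80 and Ptdss2 (0.486).

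Whether a mouse with a high level in skin also had a high level in its metastases was examined within each genotype. Of 16 relations, 8 genes in 2 genotypes, 0 passed (lowest adjusted p = 0.356, exact permutation). For Lrrc56 Pearson's r was 0.605 (Spearman's rho 0.714) in the 6 HrasKO mice and 0.505 (rho 0.583) in the 9 WT mice, with exact permutation p of 0.160 and 0.175 for r and of 0.136 and 0.108 for rho. Without the 2 mice farthest from the median in skin, r was 0.0876 in HrasKO mice and 0.493 in WT mice. The smallest p belonged to Ptdss2 in WT mice (r = 0.710, rho = 0.700, exact permutation p = 0.0302 and 0.0433, adjusted p = 0.356), and its r was 0.0156 without the 2 farthest mice, so the relation rested on those.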

How the data were processed

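RNA from 112 samples was hybridised to Affymetrix arrays. For each of 28204 probe sets the authors deposited a log2 intensity, which they had computed with RMA, per the submitters' processing notes. Neither the RMA version nor any correction of batches is given in the sources used here. Precision is limited by how many arrays and mice a group holds.

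Probe sets were named from the platform annotation: 21141 named 1 gene, 1881 named several and 5182 were not named. Only the first kind was used, with the highest mean probe set for each gene, which left 18772 genes. The positions of the probes within the genes are not used here. The genes and the gene lists were chosen with earlier results of these data known.

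Log2 values were averaged per mouse and tissue. Genotypes were compared between mice with limma 3.58.1 in R 4.3.3 (lmFit, eBayes) and batch as a covariate. By label, 95 arrays of 13 mice belonged to batch 1. The other 17 arrays, of 1 mouse per genotype, formed batch 2. Tissues of the same animals were compared in a paired fit, with mouse as the block. The histologies of WT carcinomas (spindle, SCC) were set against each other with mouse as a random block (duplicateCorrelation, correlation -0.0968) and batch as a covariate. The tests of a difference in change used the change per mouse. All limma tests are two-sided, with Benjamini-Hochberg adjustment over all genes and a threshold of 0.05. On simulated data with 200 of 18772 genes changed by log2 1, the genotype fits recovered 74.5% in skin, 67.5% in papilloma, 78.5% in carcinoma and 70% in metastasis. Of the calls, 149 of 160, 135 of 145, 157 of 163 and 140 of 153 were true in that order. The adjustment is less strict when more genes truly change, so these shares need not hold for 1 changed gene alone.

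Genes were named by a rule: the 9 genes, called genes among 25 named neighbours on each side, the Ras, Cd151 partner and motile cilium lists, the 5 genes most like Lrrc56, and the 3 largest rises and falls per genotype comparison outside the locus. Alternatives were no batch term, batch 1 alone, eBayes with trend and robust, averaging the probe sets of a gene, keeping only genes that exceeded 6.80 (the median of all values) in 8 or more arrays, repeated quantile normalization, individual arrays with mouse as a random block, histology or site restricted, arrays that stood apart left out, and each mouse left out. Promoter windows came from RefSeq (GRCm38.p6), which was also used for the order of genes.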

Additional observations from a re-analysis of the deposited data

Results flagged for a closer look

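Of 64 groups of 4 to 10 mice tested, 4 held a mouse far from the others, and chance alone gives about 1 in 20. The Rassf7 level in skin of HrasKO mouse 1706 was 6.79, below the next mouse at 8.02 and the highest at 8.54. The Cd151 level in papillomas of WT mouse 1815 was 11.33, above the next mouse at 10.88 and the lowest at 10.52. The Cd151 level in the carcinoma of HrasKO mouse 1616 was 10.37, below the next mouse at 10.91 and the highest at 11.07. The Tmem80 level in metastases of WT mouse 1949 was 8.45, above the next mouse at 7.58 and the lowest at 6.90.

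The difference of Lrrc56 between HrasKO and WT mice was larger in carcinoma than in skin by 0.72 on the log2 scale, by a test of the difference itself.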

How the results depend on the processing

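Lrrc56 was higher in HrasKO mice in every alternative of the 4 genotype comparisons, with the call depending on the setting. Averaging probe sets, the filter on low values and eBayes with trend and robust cannot change its difference, only its adjusted p. Batch 1 alone gives the same genotype result as leaving out mouse 1456 or mouse 1664. In skin, batch 1 alone gave 0 genes and 0 of the 8 genes (Lrrc56 0.79). In papilloma, no batch term gave 2 genes and 1 of the 8 (Lrrc56 0.95), batch 1 alone and the filter on low values gave 0 genes, and individual arrays (Lrrc56 0.94) and leaving out arrays that stood apart (Lrrc56 1.06) each gave 1 of the 8. In carcinoma the count of 831 genes was 3 in batch 1 alone, 1384 with the filter, 261 with repeated quantile normalization, 3 with individual arrays and 78 with the share of spindle arrays as a covariate. It was 0, with 0 of the 8, without arrays that stood apart (Lrrc56 1.40) and among spindle tumours alone (Lrrc56 1.23). In metastasis, no batch term gave 1 gene, 1 of the 8 (Lrrc56 1.19), individual arrays gave 4 genes, 1 of the 8 (Lrrc56 1.17), and SCC tumours alone gave 29 genes. With no replicate block (mouse), 3 of the 8 changed between carcinoma and papilloma, and 1832 genes between metastasis and carcinoma. In WT mice alone, 3 of the 8 passed between papilloma and skin, 0 of the 8 and 867 genes between carcinoma and papilloma, and 941 genes between metastasis and carcinoma.

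When each mouse was left out in turn, Lrrc56 lay between 0.75 and 0.83 in skin, 0.89 and 1.00 in papilloma, 1.46 and 1.56 in carcinoma and 1.12 and 1.26 in metastasis. The genes called numbered 0 to 2, 0 to 33, 3 to 2411 and 0 to 1 in that order, and those of the 8 numbered 0 to 1, 0 to 1, 1 to 2 and 0 to 1. Between stages, 5 to 6 of the 8 and 7278 to 8589 genes passed from skin to papilloma, 1 to 4 of the 8 and 3678 to 5918 genes from papilloma to carcinoma, and 0 to 1 of the 8 and 2382 to 3185 genes from carcinoma to metastasis. Between spindle and SCC carcinomas 0 to 2 of the 8 and 0 to 3671 genes passed. No called difference of the 8 genes changed sign. Signs turned, with a call in neither fit, in 16 of 752 alternatives of the genotype comparisons, 12 of 376 of the stage comparisons and 10 of 80 of the comparison of histologies. The number of mice limits all of these tests.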
